A study of Rattus norvegicus with 21 samples.

Results

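Microglia sorted 7 days after stroke in the rat were compared with microglia of sham-operated rats of the same set. The 8 libraries were chosen by their titles, 4 of MCAO microglia (7D1_Mg to 7D4_Mg) and 4 of sham microglia (7D1_SH to 7D4_SH), out of 21 libraries in the series. In adult rats, whose strain field reads Winstar, the middle cerebral artery was closed for 90 min with a filament and then reopened (MCAO), and in sham animals the right external carotid artery was tied off without the filament. Immune cells of the operated side were sorted, and microglia were gated as CD11b+ with low CD45, the same gate for both groups. The other libraries are 4 titled 7D with the letters MO, and 9 of a separate set (3 libraries each of microglia and macrophages after MCAO and of microglia after sham surgery) called the 24h set here. Titles with MO are macrophages in the 24h set, but the source and gate fields of the 4 in the 7D set read microglia with low CD45, so they are called 7D MO libraries here. In the 24h set the gate fields of microglia replicate 3 and macrophage replicate 3 go against their titles, and groups follow the titles. Lists chosen without those libraries gave counts within 1.5 times those below. The time rests on the titles alone, because the treatment field of all 7D libraries reads 24 h, and the treatment field of the sham libraries names a PBS injection that the protocol does not describe. The labels call the replicates biological but do not tie them to animals, and 4 to 6 rats are given per experiment, so p-values measure only the spread between these libraries, which may be technical, and whether animals were pooled is not given.

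Microglia are the resident macrophages of the brain. After ischaemia they leave the surveying state, clear dying cells and debris, divide, and release both inflammatory and repair factors over days, while monocytes enter from the blood and take on a similar form. The CD45 gate is meant to keep these apart, but activated microglia are known to raise CD45. Chi3l1 encodes a secreted chitinase-like glycoprotein made by activated macrophages, neutrophils and astrocytes, and Nos2 encodes the inducible nitric oxide synthase, a classic product of inflammatory activation. These 2 are the only genes named in the files. All other values belong to Ensembl transcript identifiers that could not be paired with gene names, so the gating could not be checked against marker genes, and groups of transcripts are described by how they behaved in the 24h libraries.

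The 8 libraries held 11115359 to 14333865 expected counts each. Sham replicate 3 stood apart from the other sham libraries. Its correlations with them across transcripts were 0.927 to 0.932, while the other 3 correlated with each other at up to 0.959. It lay at least 2-fold below all other sham libraries in 690 of 12536 transcripts with a mean of at least 1 CPM (expected counts scaled to a common library total), and at least 2-fold above them in 138. In the other sham libraries these counts were 65 to 109 below and 35 to 83 above, and in the microglia libraries 82 to 163 below and 30 to 70 above. The transcripts low in sham replicate 3 had a median length of 2504.5 nt and those high in it 1810.0 nt, against 2086.0 nt for all 12536. On the first principal component (42.0% of variance) the library lay with the other sham libraries, at 78.7 against 79.0 to 85.9, far from microglia at -36.9 to -14.4. On component 3 (9.68%) it lay alone at 67.2, against -26.1 to -19.2 for the other sham libraries. The tests below were therefore also run without it.

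**Figure D1:**
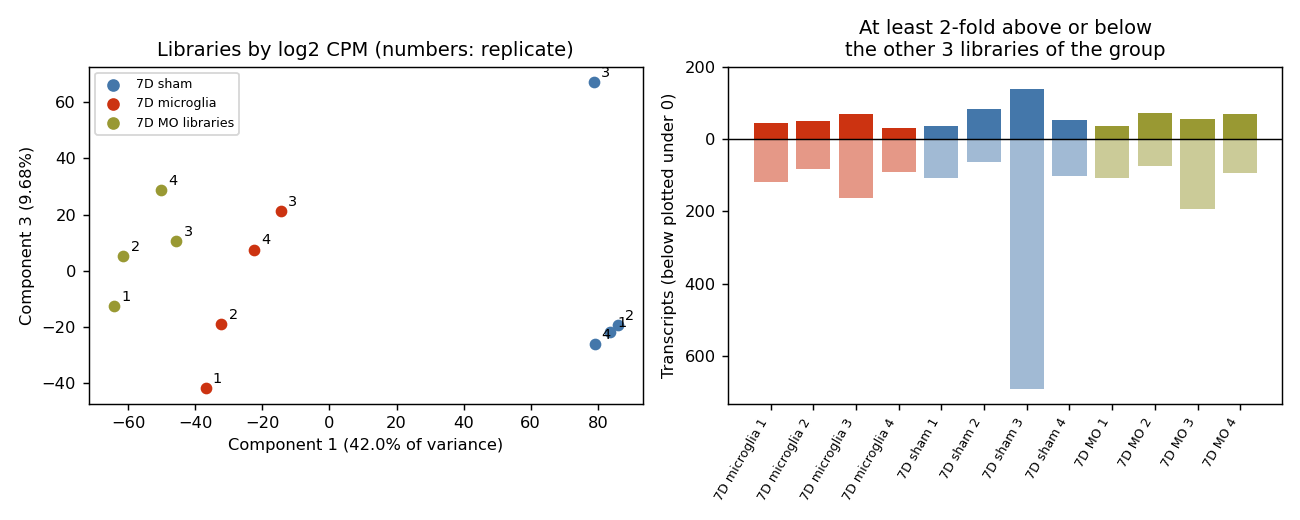
Left, the 12 libraries of the 7D set on components 1 and 3 of their log2 CPM, with replicate numbers beside the points; right, the number of transcripts at least 2-fold above (upward) or below (downward) the other 3 libraries of the group. Sham replicate 3 lies with its group on component 1 but alone on component 3, and has 690 transcripts below its group against 65 to 109 in the other sham libraries.

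To show the state of resident cells late after stroke, MCAO microglia were tested against sham microglia. Of 13384 transcripts tested, 46.2% were called (edgeR quasi-likelihood test, Benjamini-Hochberg adjusted p under 0.05), 22.9% higher and 23.2% lower in MCAO microglia. At least 2-fold changes were counted in 1034 transcripts that rose (7.73%) and 1290 that fell (9.64%), and at least 4-fold changes in 397 transcripts that rose (2.97%) and 497 that fell (3.71%), at least 8-fold changes in 185 and 197, and at least 16-fold changes in 64 and 94. In 2642 transcripts (19.7%) each MCAO library lay above each sham library, and in 2704 (20.2%) each lay below.

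Leaving out sham replicate 3 added calls, more of them higher than lower. The numbers became 3685 higher (27.0%) and 3337 lower (24.4%) of 13669 tested, 51.4% in all. At least 2-fold changes numbered 1158 (8.47%) and 1394 (10.2%), and at least 4-fold changes 431 (3.15%) and 582 (4.26%). Of the 3070 transcripts higher with all libraries, 2986 remained so without it, and of the 3110 lower, 2791 remained. None changed direction, 677 were newly called higher and 471 newly called lower. The 4-fold classes kept their order, with more falls than rises. With only the 8 compared libraries in the filter and fit, 347 rose and 395 fell at least 4-fold. At 8-fold the order turned there, with 158 rises and 146 falls, and at 16-fold there were 46 and 56. In that fit less sham replicate 3, falls were again more frequent at 8-fold, with 180 rises and 191 falls.

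**Figure D2:**
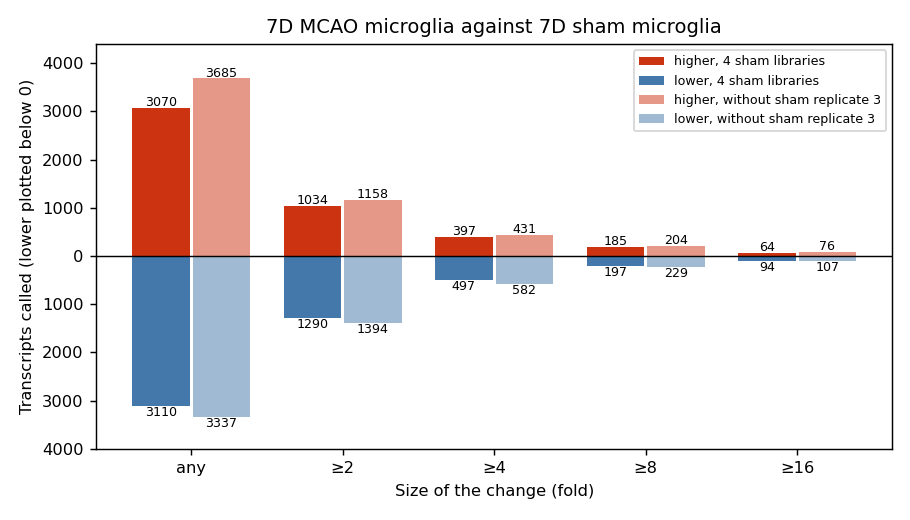
Transcripts called higher (upward bars) and lower (downward bars) in 7D MCAO microglia than in 7D sham microglia, by the smallest size of change counted, with 4 sham libraries (dark) and without sham replicate 3 (light). Both sets of bars have more falls than rises from 2-fold upward, for example 497 against 397 at 4-fold with all libraries. Filter and fit took in the 7D MO libraries in both.

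Rises and falls were spread unequally over abundance and length. Transcripts were ranked and cut into 3 equal classes. In the class with the lowest mean level over the 12 libraries of the set (0.389 to 8.56 CPM), 13.4% rose and 25.3% fell. Of the changes of at least 4-fold, 402 of the 497 falls and 208 of the 397 rises were here. In the most abundant class (40.6 CPM and above), 31.0% rose and 22.2% fell. By length, 29.9% of the shortest class (up to 1572.0 nt) rose and 15% fell, while 17.1% of the longest class (from 2735.0 nt) rose and 29.6% fell. The medians of the log2 fold change were 0.13 and -0.14. This slope with length was as large without sham replicate 3, at 36.5% rising and 14.8% falling of the shortest and 18.8% and 33.4% of the longest class. The mean transcript length weighted by counts moved the same way, being 2770.2, 2734.4, 2612.2 and 2700.7 nt in the MCAO libraries and 2940.6, 2912.6, 2620.0 and 2951.0 nt in the sham libraries. Here sham replicate 3 lay among the MCAO libraries, the groups overlapped, and the difference missed the threshold (exact permutation test, two-sided, p = 0.11, adjusted p = 0.23 over 6 measures). Without sham replicate 3 the groups did not overlap, and the difference in means went from -151.7 to -230.3 nt (exact permutation test, two-sided, adjusted p = 0.11). With a sham library fewer, this test cannot reach a p-value under 0.05, so nothing is read from it. Among changes of at least 4-fold, there were 120 rises and 139 falls in the shortest and 137 and 183 in the longest class, and without sham replicate 3 there were 136 and 144 in the shortest and 133 and 196 in the longest. The part of this difference between libraries in the calls was not tested.

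Chi3l1 was lower in MCAO microglia. Its level was 2.32, 2.22, 3.73 and 1.93 CPM in the 4 MCAO libraries, from 28 to 42 expected counts, and 16.7, 12.7, 7.67 and 13 CPM in the 4 sham libraries. Every MCAO library lay below every sham library, and sham replicate 3 was the lowest of its group. The log2 fold change was -2.30 ± 0.58 (SE, n = 4 each; edgeR adjusted p = 0.0067) and -2.46 without sham replicate 3 (edgeR adjusted p = 0.0068). The call held in 18 of 18 alternatives, with adjusted p-values of 0.00013 to 0.026. The 7D MO libraries held 4.57, 8.07, 7.89 and 35.2 CPM, so replicate 4 alone exceeded the sham libraries. In the 24h set Chi3l1 did not pass the threshold, at 50.6, 6.09 and 13.6 CPM in MCAO microglia and 10.2, 18.6 and 17.2 CPM in sham, a log2 fold change of 0.61 (edgeR adjusted p = 0.47), nor did the difference between the sets (-2.91 ± 0.95, SE; edgeR adjusted p = 0.12).

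Nos2 was near the limit of detection in MCAO microglia. The 4 libraries held 3, 0, 0 and 4 expected counts, or 0.232, 0, 0 and 0.276 CPM, where 3 counts correspond to 0.229 and 0.267 CPM in the libraries at 0. The sham libraries held 4.27, 2.23, 0.714 and 2.18 CPM, all above the MCAO libraries, with replicate 3 again lowest. The difference missed the threshold when the spread was estimated over all 12 libraries of the set (log2 fold change -4.05 ± 1.69, SE, n = 4 each; edgeR adjusted p = 0.069). It passed when the 7D MO libraries, 1 of which holds 24.0 CPM against 0 to 1.25 CPM in the other 3, were left out of the fit (log2 fold change -4.04, edgeR adjusted p = 0.0049). Over 18 alternatives it passed in 5, with adjusted p-values of 0.0025 to 0.17. It is therefore not called here, although no sham library overlapped an MCAO library. In the 24h set Nos2 was at 9.65, 0.652 and 2.71 CPM in MCAO microglia and 0.552, 3.39 and 1.64 CPM in sham, and the difference between the sets missed the threshold (-5.23 ± 2.17, SE; edgeR adjusted p = 0.25).

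Both genes are also expressed by other myeloid cells, so transcripts of macrophages are given beside them. A list called macrophage-high was taken from the 24h libraries alone, as transcripts at least 4-fold higher in 24h macrophages than in both 24h sham microglia and 24h MCAO microglia (590 transcripts; the 2 conditions alone take 9.58% and 5.05% of transcripts). It held 0.619, 0.690, 0.620 and 0.550% of the counts in 7D MCAO microglia and 0.773, 0.678, 0.722 and 0.743% in 7D sham microglia, with overlap, against 1.78 to 2.62% in 7D MO libraries and 6.66 to 8.94% in 24h macrophages. Of the 590, 29 were at 0 in all 4 MCAO microglia libraries and 17 in all 4 sham libraries. The part of such cells in the Chi3l1 and Nos2 differences was not tested. In sorted bulk samples, fewer cells of a type and less RNA per cell cannot be told apart.

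In all, 4 transcript identifiers were chosen by size among those that kept their call without sham replicate 3, reached 3 in mean log2 CPM and did not overlap between groups, which 1977 rising and 1552 falling transcripts did. They are the largest such changes in each direction, and that choice fixes their lack of overlap; their levels in the other groups played no part in it.

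ENSRNOT00000012760 (3474 nt) had the largest rise under these conditions. It held 222.6, 208.3, 176.3 and 109.4 CPM in MCAO microglia and 2.40, 3.84, 1.07 and 2.60 CPM in sham, 70.5-fold higher (log2 fold change 6.14 ± 0.38, SE, n = 4 each; edgeR adjusted p = 4.8e-07). In 24h microglia the level was 15.3 to 46.7 CPM against 2.87 to 7.46 CPM in 24h sham, so the transcript was already higher at 24 h but by less, and the change differed between the sets (difference 3.35 ± 0.63 on the log2 scale, SE; edgeR adjusted p = 0.0073). In the 7D MO libraries it held 38.5 to 78.1 CPM, below all MCAO microglia libraries, and in 24h macrophages 3.61 to 6.97 CPM.

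ENSRNOT00000011727 (1790 nt) rose from 0.310, 0.337, 0.268 and 0.504 CPM in sham (3 to 6 expected counts each) to 30.1, 19.1, 14.8 and 5.80 CPM (log2 fold change 5.58 ± 0.56, SE, n = 4 each; edgeR adjusted p = 1.3e-05). MCAO replicate 4 was low, though still above every sham library. The transcript was at 20.1 to 45.4 CPM in the 7D MO libraries and 80.3 to 91.5 CPM in 24h macrophages. In 24h microglia it held 1.78 to 2.83 CPM, against 0.138, 0 and 0.274 CPM in 24h sham (1, 0 and 2 expected counts). It was thus already higher in 24h microglia (log2 fold change 3.97 ± 0.47, SE; edgeR adjusted p = 0.00023). The change of microglia against sham did not differ between the sets past the threshold (difference 1.60 ± 1.79, SE; edgeR adjusted p = 0.76). That comparison rests on sham levels near the limit of detection.

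ENSRNOT00000061950 (1926 nt) was abundant in sham microglia and low after MCAO. It held 790.1, 2342.4, 199.2 and 2368.8 CPM in sham and 3.40, 5.42, 2.84 and 3.04 CPM in MCAO microglia (log2 fold change -8.59 ± 0.92, SE, n = 4 each; edgeR adjusted p = 2e-05). The sham libraries themselves varied widely, with replicate 3 lowest, yet that library too lay above all MCAO ones, and without it the log2 fold change was -8.93. Another identifier of the same length carries identical values in all 21 libraries, so the 2 lines are not independent and 1 of them is described here. Such pairs of identical lines made up 114 of the tested transcripts (0.852%), of which 56 were called, and both lines of a pair are in the counts of transcripts. In 24h microglia the transcript was at 8.91 to 154.7 CPM, against 2379.3 to 3028.1 CPM in 24h sham. It was thus already lower there (log2 fold change -4.66 ± 0.95, SE; edgeR adjusted p = 0.0039). Its larger fall in the 7D set missed the threshold for a difference between the sets (difference -3.91 ± 1.22, SE; edgeR adjusted p = 0.11).

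ENSRNOT00000025308 (1488 nt) fell in MCAO microglia of the 7D set and was high in the MO libraries. It held 50.2, 55.6, 73.1 and 44.4 CPM in sham and 0.463, 2.14, 1.78 and 0.691 CPM in MCAO microglia (log2 fold change -5.47 ± 0.33, SE, n = 4 each; edgeR adjusted p = 4.4e-07). The 7D MO libraries held 134.2 to 172.4 CPM and 24h macrophages 303.5 to 506.8 CPM, so all of these lay above all sham libraries. In the 24h set microglia had 6.41 to 21.4 CPM and sham 12.9 to 21.1 CPM, which did not differ past the threshold (log2 fold change -0.45 ± 0.41, SE, n = 3 each; edgeR adjusted p = 0.40), and the change differed between the sets (difference -5.01 ± 0.55, SE; edgeR adjusted p = 8.7e-05). Sham level itself was higher in the 7D set than in the 24h set, with values normalised within each set.

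**Figure D3:**
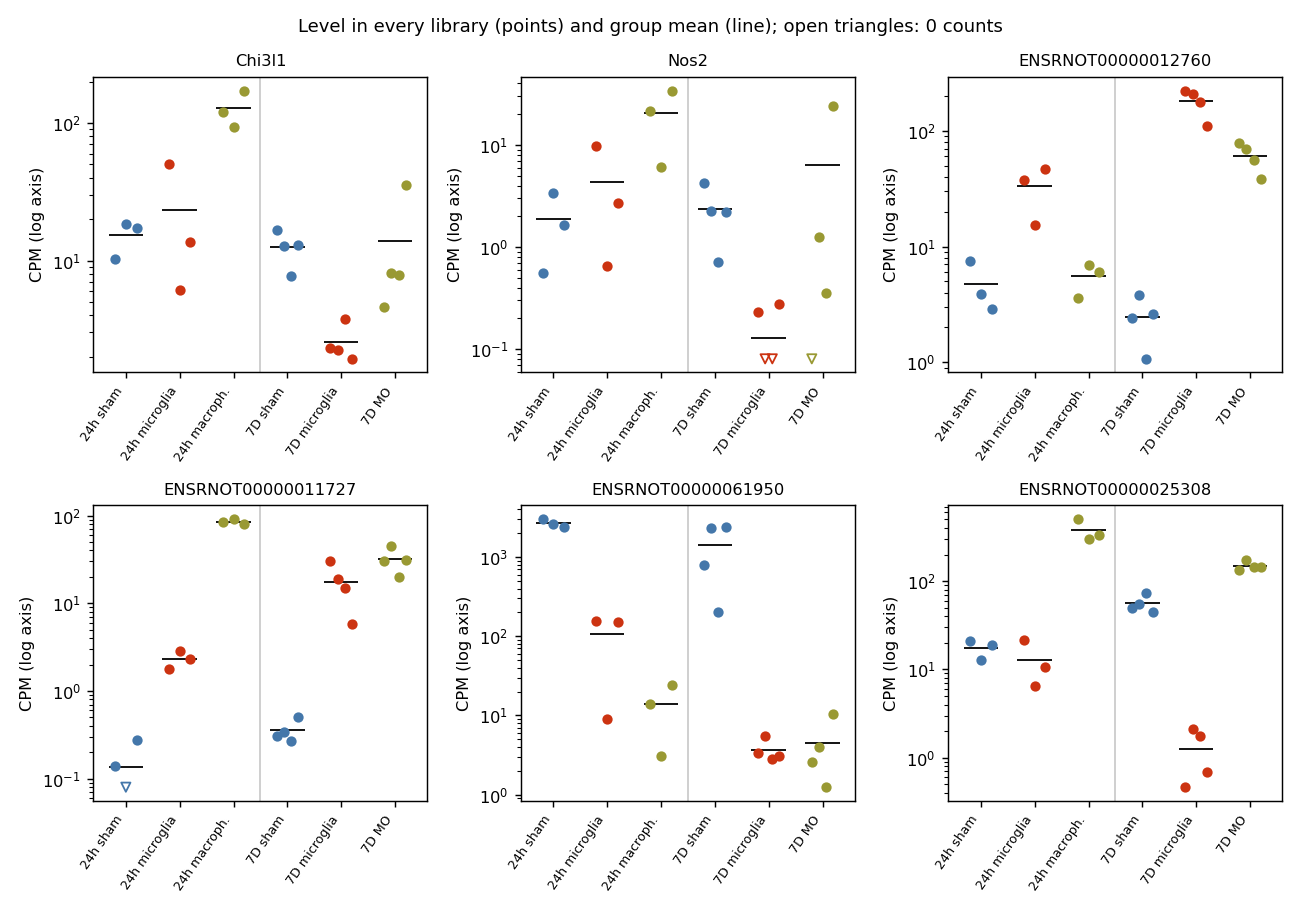
Level in every library (points, CPM on a log axis) with the group mean (line) for the 2 named genes and 4 identifiers, 24h set left and 7D set right of the grey line; open triangles are libraries with 0 counts. In the 7D set no MCAO microglia library (red) overlaps a sham library (blue) in any of the 6 panels, while MO libraries (olive) lie near microglia for ENSRNOT00000061950 and far above them for ENSRNOT00000025308.

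How much of the 24 h response was still present at 7 days was read from lists chosen in the 24h libraries, which share no library with the 7D comparison. Early-risen transcripts (at least 4-fold higher in 24h MCAO than in 24h sham microglia) numbered 500 (3.82% of those tested there), of which 470 were tested in the 7D set. Of these, 388 were higher in 7D MCAO microglia and 6 lower, against 22.9% higher and 23.2% lower over all transcripts. Their median log2 fold change was 2.29, where all transcripts had -0.03, and the same 470 had 3.05 in the 24h set. The 24h values chose the members and are given as a description. Per library, the list took 3.47, 3.74, 2.46 and 3.22% of the counts in 7D MCAO microglia and 0.763, 0.991, 0.919 and 0.692% in 7D sham. In the 24h set it took 2.91 to 4.21% in microglia and 0.442 to 0.502% in sham. The share in MCAO microglia was thus of like size in both sets, with MCAO replicate 3 the lowest of its group, and all 7D sham libraries lay above all 24h sham libraries.

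Early-fallen transcripts (at least 4-fold lower in 24h MCAO microglia than in sham) numbered 191 (1.46%). Of 171 tested, 145 were lower in 7D MCAO microglia and 0 higher, against 23.2% and 22.9% of all transcripts, with a median log2 fold change of -2.71 in the 7D set and -2.72 in the 24h set. The list took 0.0866, 0.0949, 0.180 and 0.107% of the counts in 7D MCAO microglia and 0.745, 1.07, 0.560 and 1.05% in 7D sham. Sham replicate 3 had the lowest share among sham libraries, and without it 148 were lower and 1 higher.

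Transcripts that set resting microglia apart from macrophages were lower too. The sham-high list (1085 transcripts, 8.29%, at least 4-fold higher in 24h sham microglia than in 24h macrophages) shares 139 transcripts with the early-fallen list, which is 12.8% of the former and 72.8% of the latter. Of 1051 tested, 725 fell in 7D MCAO microglia and 22 rose, against 23.2% and 22.9% of all transcripts, with a median log2 fold change of -1.12. Their share of counts was 8.96, 9.29, 10.8 and 9.61% in MCAO microglia against 17.3, 17.1, 17.0 and 17.0% in sham, and 7.40 to 8.52% in 7D MO libraries. Sham replicate 3 lay with its group here. MCAO microglia of the 24h set had 7.30 to 10.4%, and 24h sham, which helped to choose the list, 17.6 to 17.9%.

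Transcripts of the macrophage-high list moved both ways, in contrast to the lists above. Of 483 tested in the 7D set, 125 rose (25.9%) and 159 fell (32.9%), against 22.9% and 23.2% over all transcripts, with a median log2 fold change of -0.16 for MCAO microglia and 1.93 for 7D MO libraries against the same sham libraries. The members' quartiles were -1.98 and 1.06, and the range ran from -4.29 (5th percentile) to 3.27 (95th), a wider range than over all transcripts (-1.83 to 1.48). Of the 497 transcripts that fell at least 4-fold, 107 were on this list, and of the 397 that rose at least 4-fold, 55 were. Among all 13384 tested transcripts, the list makes up 483. The filter for testing took in all 12 libraries of the 7D set. Members could thus pass it through the 7D MO libraries, where their median was higher, and the 107 of 497 rest on that filter too. Without sham replicate 3, 118 members rose and 169 fell. With the 8 compared libraries alone in the filter and fit, 106 rose and 105 fell. The excess of falls was not seen in that fit and is not read as a trait of microglia. With the list chosen at 2-fold instead, 343 rose and 211 fell, so rises were the more frequent.

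**Figure D4:**
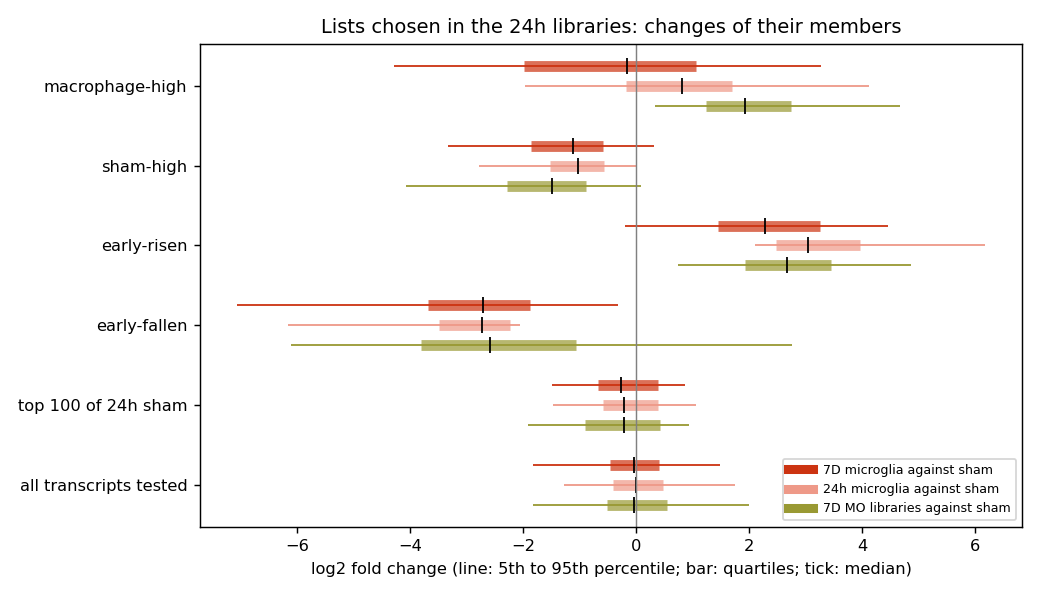
Log2 fold changes of the members of 5 lists chosen in the 24h libraries, and of all transcripts, for 7D microglia, 24h microglia and 7D MO libraries, each against the sham libraries of its set (tick, median; bar, quartiles; line, 5th to 95th percentile). Early-risen members lie mostly above 0 with a 7D median of 2.29 and early-fallen members mostly below 0 at -2.71, while macrophage-high members spread to both sides in 7D microglia; the 24h values of early-risen, early-fallen, sham-high and macrophage-high members come from the libraries that chose the lists.

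The most abundant transcripts of resting cells fell more often than they rose. Of the 100 most abundant in 24h sham, 25 rose and 44 fell in 7D MCAO microglia, against 22.9% and 23.2% of all transcripts, while 4 rose and 13 fell at least 2-fold, against 7.73% and 9.64%, and the median log2 fold change was -0.27. Together they took 23.4, 23.7, 26.7 and 23.7% of the counts in MCAO microglia and 25.9, 25.3, 28.3 and 25.6% in sham, so the groups overlapped through MCAO replicate 3 alone. Without sham replicate 3, 33 rose and 40 fell.

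**Figure D5:**
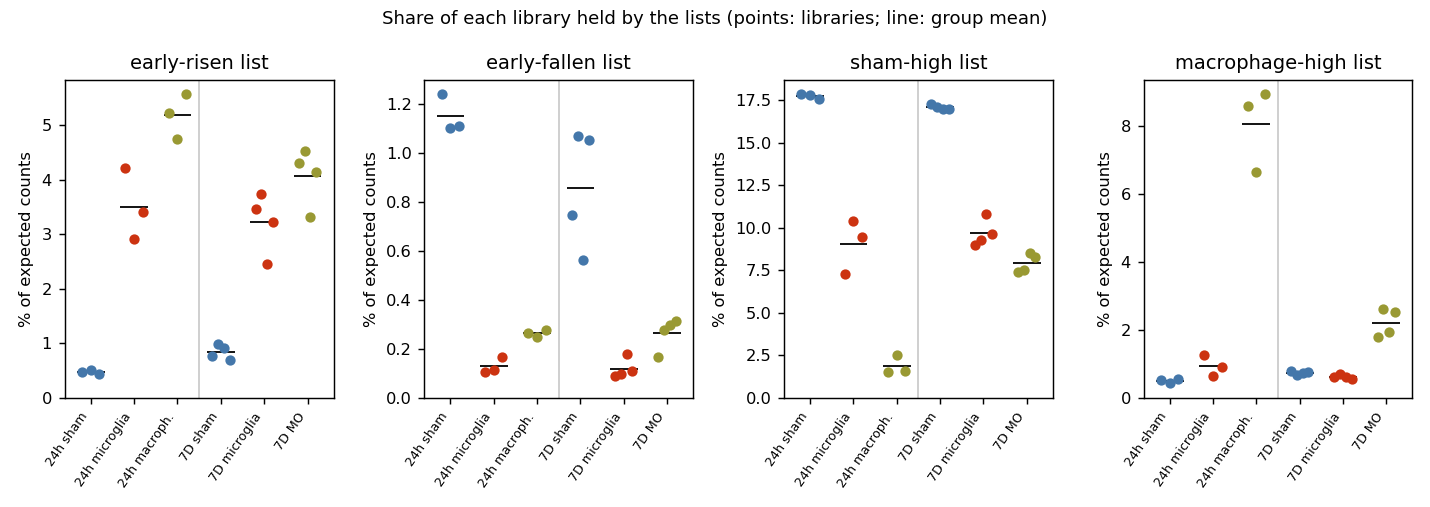
Percent of each library's expected counts held by 4 of the lists (points, libraries; line, group mean), 24h set left and 7D set right of the grey line. Early-risen, early-fallen and sham-high shares of 7D MCAO microglia (red) do not overlap 7D sham (blue), while the macrophage-high share overlaps at 0.550 to 0.690% against 0.678 to 0.773%.

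Read from the 7D side, the largest changes were in part also called in the 24h set. Of the 397 transcripts that rose at least 4-fold, 350 were tested in the 24h set, where 321 were called higher and 1 lower (over all transcripts there, 24.8% higher and 20.7% lower). Of the 497 that fell at least 4-fold, 422 were tested and 219 were called lower and 10 higher. Beside the 7D MO libraries, which are set against the same sham libraries, the 397 had a median log2 fold change of 2.94 in microglia and 3.17 in the MO libraries. For the 497 it was -2.72 and -2.30, with the MO values running from -4.28 to 1.75 between the 10th and 90th percentiles. The 397 rises took 2.94 to 3.75% of the counts in MCAO microglia against 0.445 to 0.632% in sham, and the 497 falls took 0.167 to 0.343% against 1.25 to 1.85%; these transcripts were chosen by that difference. At the extreme, 9 transcripts were at 0 in all sham libraries with at least 3 counts in every MCAO library, and 24 were the reverse. Of these, 2 and 6 were on the macrophage-high list. That list holds 590 of all 30404 transcripts, a base that includes transcripts too scarce to test, and 483 of the 13384 tested. Only 6 of the 9 and 14 of the 24 passed the filter for testing. The medians of their mean counts in the higher group were low, at 10.1 for the 9 and 11.2 for the 24.

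Whether the change differed from that at 24 h was tested directly on all 21 libraries. Of 14252 transcripts, 0.470% had a more positive and 1.71% a more negative change in the 7D set. The 243 more negative ones had a median log2 fold change of 1.13 at 24h by title, against -0.68 for 7D, where 131 were called lower and 69 higher. Among them, 62 belonged to the macrophage-high list, which is 25.5% of the 243 and 10.5% of the 590 members, and the list makes up 4.14% of all transcripts in that fit. The early-risen list, which shares 93 members with it, held 49 of the 243 (20.2%). That is 9.80% of its 500 members, and the list makes up 3.51% of all transcripts. The 24h microglia and sham libraries helped to choose both lists and also enter this difference. These shares are therefore not independent of the choice and are given as a description. Without sham replicate 3, 310 were more positive (2.18%) and 338 more negative (2.38%), so the excess of negative differences nearly vanished without that library, and 75 of the 338 were on the macrophage-high list. Other single libraries also moved the counts, to 42 more positive without 24h microglia replicate 1, and to 43 more positive and 156 more negative without 24h sham replicate 1. The set and the time in the titles cannot be told apart.

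Measures of whole libraries were compared last. MCAO microglia had 12146, 12111, 12139 and 12090 transcripts with at least 1 CPM and sham microglia 12544, 12908, 12343 and 12617, without overlap. The most abundant transcript took 1.77, 1.92, 2.56 and 1.96% of the counts in MCAO and 3.39, 2.97, 3.71 and 3.17% in sham libraries. Both differences had the smallest p-value that 4 against 4 libraries allow (exact permutation test, two-sided, p = 0.029) and an adjusted p of 0.086 over the 6 measures tested, so with this number of libraries the adjusted test could hardly pass.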

How the data were processed

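RNA of sorted cells was sequenced by poly(A)-selected, strand-specific libraries. Per the submitters' processing notes, bcl2fastq, TopHat2 and RSEM were used on build rn5; their versions and the annotation are not given in the sources used here. The authors deposited a file per library with RSEM's expected counts of 30404 transcripts, estimated by dividing shared reads between transcripts, so a change can lie in that division. Lines named Chi3l1 and Nos2 are displaced by 2 columns, so their expected count was read under the FPKM header of the deposited files; FPKM values were not used. Whether their reads also count in other lines is unknown.

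The test, on rounded counts, was the quasi-likelihood test of edgeR 4.0.16 under R 4.3.3 (TMM from transcripts, filterByExpr with a minimum count of 10 and total of 15, Benjamini-Hochberg threshold 0.05). The 12 libraries of the 7D set were fitted together, the 9 of the 24h set apart, and all 21 for differences between sets. Levels are TMM-scaled CPM within a set. SE is the log2 fold change over the root of F. Principal components used log2 CPM (prior count 1). Nominal fragment lengths come from length minus effective length. The script was tested on simulated data. Alternatives included DESeq2 1.42.0, limma-voom (limma 3.58.1), other filters and left-out libraries.

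Identifiers to print were at most 2 rising and 2 falling, the largest changes with adjusted p under 0.05 with and without sham replicate 3, mean log2 CPM of at least 3, no overlap and no 0 in the higher group; of 2 identical lines 1 is printed. The libraries and lists were chosen with earlier results of these data known. Gene and marker lists by name could not be applied, since 0 identifiers matched the RefSeq table (GRCr8). All libraries of a group differed by more than counting error, with chi-square ratios of 15.9 to 65.3 to their degrees of freedom.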

Additional observations from a re-analysis of the deposited data

Results flagged for a closer look

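In groups of 4, a library far from the other 3 was looked for in 34 sets of values, and 4 were found, where chance gives about 1 in 20. Sham replicate 3 was the one apart in the share of counts held by the 100 most abundant transcripts, at 29.7% against 25.8 to 26.2%, and in the mean transcript length weighted by counts, at 2620.0 nt against 2912.6 to 2951.0 nt. Sham replicate 2 was apart in mean fragment length, at 178.3 nt against 188.1 to 189.0 nt. MCAO microglia replicate 3 was apart in the share held by the 100 most abundant transcripts of 24h sham, at 26.7% against 23.4 to 23.7%. The changes of 2 transcripts differed between the sets by an interaction test, ENSRNOT00000012760 by 3.35 and ENSRNOT00000025308 by -5.01 on the log2 scale, as given above.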

How the results depend on the processing

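Of 452 alternative values, 414 kept their direction and side of the threshold or stayed within the limits set for counts. A minimum fold of 1.5 left 2041 calls (1030 higher, 1011 lower), and on the lists 5 sham-high higher and 462 lower, 2 early-risen lower, and 6 higher and 14 lower of the 100 most abundant. An adjusted p under 0.01 left 1965 lower. Leaving out single libraries gave 5239 to 7022 calls, 2639 to 3685 higher and 2600 to 3337 lower. Nos2 passed with all 21 libraries (-4.01), DESeq2 (-4.19), only the 8 libraries (-4.04), these less sham replicate 3 (-4.35, an alternative chosen after seeing the data) and the replicate block (-5.04). Lists chosen at 2-fold are longer, and the balance of macrophage-high turned to 343 higher and 211 lower. Sham-high had 51 higher and 1434 lower, early-risen 998 higher and 28 lower, and early-fallen 1 higher and 638 lower. With only the 8 libraries 105 macrophage-high were lower and 106 higher. Early-fallen had 1 higher instead of 0 with all 21 libraries, DESeq2 and the 8 less sham replicate 3, and 0 to 1 when leaving out single libraries. Differences between the sets numbered 205 more positive and 483 more negative with DESeq2, 135 more positive with the replicate block, and 42 to 310 and 156 to 338 when leaving out single libraries. The difference in the share of the 100 most abundant transcripts ran from -0.762 to 0.744 percentage points when leaving out single libraries, turning positive without MCAO replicate 1 (0.0983), MCAO replicate 4 (0.0147) or sham replicate 3 (0.744), and was 0.552 for the 1000 most abundant. Where no construction shows it, the cause was not tested. Replicate numbers of MCAO and sham microglia did not pair by the rule used (r 0.15, 0.06, 0.18 and -0.07), although 3 of 4 numbers correlated best with their own. Microglia and MO libraries of one number correlated at 0.22 to 0.30 in all 4 and were fitted as independent; the replicate block gave 3285 higher and 3332 lower. At 3 counts per library, levels under 0.202 to 0.268 CPM could not be told from 0; intervals and floors cover counting error only.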

Other observations

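The deposited length of the Chi3l1 line differs between libraries, while that of Nos2 is 3535 nt in each. For Chi3l1 it was 1681.43, 1658, 1698.6 and 1658 nt in 7D MCAO microglia and 1708.09, 1703.01, 1679.94 and 1712 nt in 7D sham, and the groups overlapped. In MCAO microglia these values rest on 28 to 42 expected counts.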
